A study of Mus musculus with 10 samples.

Results

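The genes described here encode the chaperones that fold proteins in mitochondria and the ATP-dependent proteases that degrade them, measured in mouse brown fat, a depot rich in mitochondria that burns fuel for heat. The 10 genes are Hspd1, Hspe1, Hspa9, Trap1, Lonp1, Clpp, Clpx, Yme1l1, Afg3l2 and Spg7. They were chosen by name, and every probe set that the platform annotation gives to 1 of them alone was taken, which made 24 of the 45101 probe sets on the array. The comparison was between 5 samples from wild-type mice (WT) and 5 from mice labelled as knockouts of Sirt3 (KO), each on 1 Affymetrix expression array that took total RNA of the whole tissue. Signals are on the log2 scale, differences are KO minus WT, and probe set signals of different genes are not compared in level. Both groups were untreated littermates on a 129 background, about 1 year old. Neither the deleted part of Sirt3 nor the tissues that carry the deletion are stated by the labels. SIRT3 is the main protein deacetylase of the mitochondrial matrix, so the comparison asks whether transcripts of the protein quality system of that compartment differ when it is deleted.

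Most mitochondrial proteins are made in the cytosol and enter the organelle unfolded. Hspa9 encodes mortalin, the matrix HSP70 that pulls them in and holds them, and Hspd1 and Hspe1 encode the HSP60 barrel and its HSP10 lid, which fold them. Trap1 encodes the mitochondrial HSP90. In the matrix, LONP1 degrades oxidised and misfolded proteins, and CLPX unfolds substrates and feeds them to the CLPP protease. In the inner membrane, YME1L1 (the i-AAA protease) faces the space between the membranes, and AFG3L2 with the SPG7 product paraplegin (the m-AAA protease) faces the matrix. When unfolded protein builds up in mitochondria, a stress response to the nucleus raises several of these genes.

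Hspd1 and Hspe1 lie head to head in the genome and are read outward from a common promoter region, shown here because they are the 1 pair of these genes that shares its regulatory DNA. RefSeq promoter windows (250 bases before to 50 after a start, assembly GRCm38.p6) were found for 8 of the 10 genes, in 9 windows. The stretch between the start of Hspe1 on the plus strand and the nearer of the Hspd1 starts on the minus strand is 215 bases long, at chr1:55087933-55088147, and a further Hspd1 start lies beyond the Hspe1 start. It is given on the plus strand with 2 kinds of match in capitals, TGCAAT, the core of a CHOP and C/EBP site, and then a run of heat shock element units, 2 copies of TTCNNGAA with NN between them, in which heat shock factor contacts each TTC or GAA.
Hspd1 and Hspe1: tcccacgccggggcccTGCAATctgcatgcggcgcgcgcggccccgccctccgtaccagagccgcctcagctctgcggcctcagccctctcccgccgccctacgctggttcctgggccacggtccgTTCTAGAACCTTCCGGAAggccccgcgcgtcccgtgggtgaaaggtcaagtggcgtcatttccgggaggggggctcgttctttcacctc
The run begins 89 bases before the Hspe1 start. Searched on both strands, it occurred in 5 of 32817 promoter windows (0.0152%), 2 of them the overlapping windows of Hspd1 and Hspe1. A single pair of units, TTCNNGAA, which the run contains, was found in 8.51% of windows and also in that of Clpp. TGCAAT was found in 8.40% of windows, and among these genes in those of Hspd1 and Hspe1. A cyclic AMP response element, TGACGTCA, was in 1.79% of windows and, of these genes, in that of Trap1, at chr16:4077835-4077872 on the minus strand.
Trap1: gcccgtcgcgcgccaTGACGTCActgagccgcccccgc
The capitals mark the element, which begins 47 bases before the start. The ATF4 element TGATGNAAT and the palindromic NRF1 site were each in 0.966% of windows and were not found in the 9 windows. The run was added to the motifs searched after the Hspe1 window had been read. A match describes these letters and shows no binding.

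As for the arrays themselves, pairwise correlations over probe sets lay between 0.988 and 0.997, and array medians between 5.58 and 5.61 log2 units. Sirt3 was not lower in the arrays labelled KO: its probe set gave 10.03 to 10.28 (median 10.10) in WT and 10.22 to 10.40 (median 10.31) in KO arrays, a difference of 0.19 ± 0.061 (SE) with an adjusted p of limma of 0.914. Taken alone, it was higher in KO arrays, with an exact permutation p of 0.016 and an unadjusted p of limma of 0.0096. A probe set outside the deleted part would not check the labels, so directions refer to arrays labelled KO. Brown fat markers differed in signal: Ucp1 had a mean of 14.14 and Cidea of 14.19 log2 units, while that of Zic1 lay within the range of the array medians. Dio2 ran from 8.65 in WT 2 to 11.32 in WT 5. Of the 9 measured brown fat markers, 2 were higher and 7 lower in arrays labelled KO. Their median difference was -0.082, and 0 passed the test. Skeletal muscle transcripts varied most: the mean of the 19 measured markers ran from 7.74 to 11.69 in WT and from 5.47 to 11.39 in KO arrays, was lowest in KO 3, KO 1 and WT 5, and 19 of 19 had a lower mean in KO, with 0 past the test. In whole tissue, fewer cells of a type and less RNA per cell cannot be told apart.

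None of the 10 genes differed between genotypes by the test used. With the brightest probe set of each gene, 5 were higher and 5 lower in arrays labelled KO, where 56.1% of all genes were lower, and the median of the 10 differences was -0.0050 log2 units, against -0.013 over all 18193 genes. By limma, 0 of the 10 had an adjusted p under 0.05 (0% of all genes had) and 0 had an unadjusted p under 0.05, where 4.68% of all genes had. Groups overlapped in each of the 10, and did not overlap in 0.627% of all genes. The 95% confidence intervals, before adjustment over genes, reached from -0.35 for Hspe1 to 0.36 for Spg7, or from 0.783-fold to 1.28-fold, KO over WT. Larger differences lay outside the interval of each of the 10 with the probe set used. In the fit over probe sets, the interval of 1 other Yme1l1 probe set reached -0.38. The same test over all 45037 probe sets other than controls called 0 of the 24, and 0 had an unadjusted p under 0.05, where 5.43% of all probe sets had. Of the 24, 13 were lower in arrays labelled KO and 0 had groups that did not overlap, against 51.9% and 0.711% of all probe sets.

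**Figure D1:**
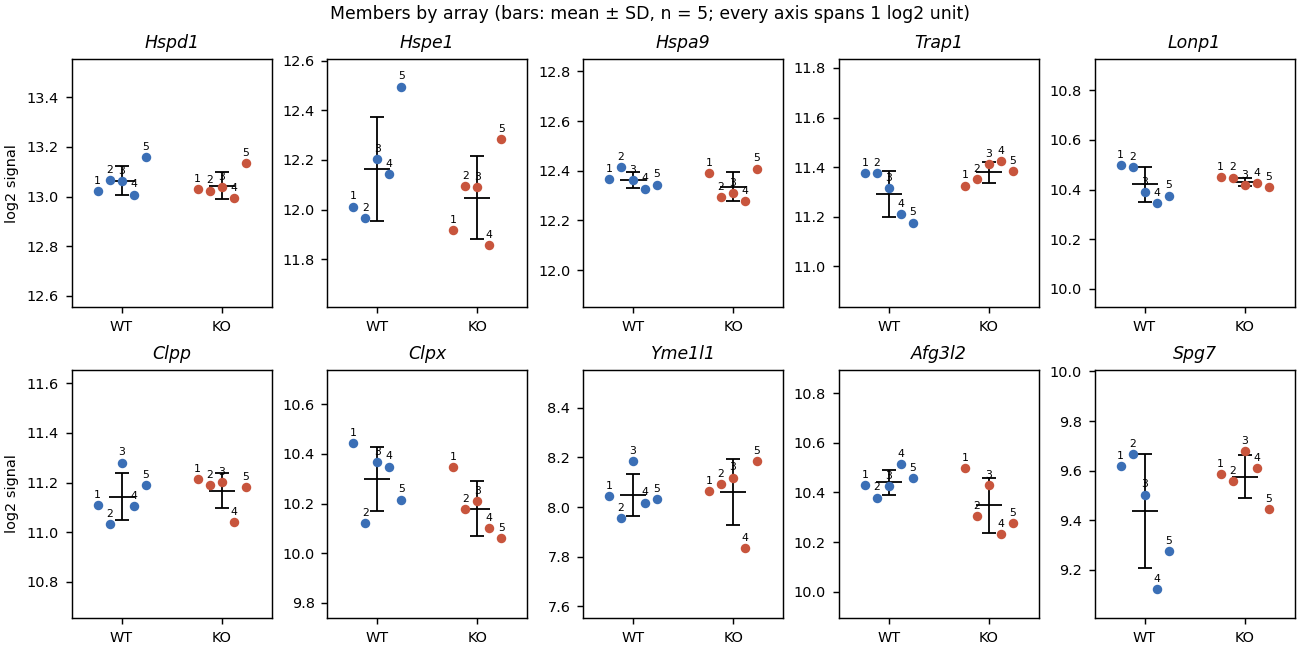
Log2 signal of each of the 10 genes in every array, blue for WT and red for arrays labelled KO, with the array number above each point and bars for the mean ± SD (n = 5); each vertical axis spans 1 log2 unit. Points of both groups overlap in every panel, and Hspe1 and Spg7 show the widest spread, 0.64 and 0.56 log2 units over the 10 arrays.

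The HSP60 and HSP10 pair differed in how much it varied. In order of array number, Hspd1 gave 13.02, 13.07, 13.06, 13.01 and 13.16 log2 units in the WT group, and the KO group gave 13.03, 13.02, 13.04, 12.99 and 13.14. Array 5 was the highest of each group, and the other arrays lay between 12.99 and 13.07. The difference was -0.020 ± 0.050 (SE; adjusted p of limma 0.964), and without WT 5 it was 0.0041. Hspe1 was 12.01, 11.97, 12.20, 12.14 and 12.50 in WT and 11.92, 12.09, 12.09, 11.86 and 12.28 in KO arrays. Here too array 5 was the highest of its group. The difference was -0.12 ± 0.11 (adjusted p of limma 0.918), and it was -0.032 without WT 5 and -0.011 without WT 4 and WT 5. The other Hspe1 probe set differed by -0.11 and had r = 0.927 with the one used over the 10 arrays.

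The probe set used for mortalin varied little between arrays. Hspa9 gave 12.36, 12.42, 12.36, 12.33 and 12.34 in the WT group, and the KO group gave 12.39, 12.29, 12.31, 12.28 and 12.41, a range of 0.14 log2 units over all 10. The difference was -0.027 ± 0.047 (adjusted p of limma 0.956). The SD within groups of that probe set, 0.048 log2 units, was at percentile 1.74 of all genes, with that of Lonp1 at 2.36 and that of Hspd1 at 3.60. The other 4 Hspa9 probe sets had SDs of 0.073, 0.077, 0.109 and 0.156, so the low spread depends on the probe set. In 8 of the 10 genes the SD within groups was under the median of all genes, 0.124. The others were Hspe1 at percentile 82.4 and Spg7 at 78.2. Low spread was not particular to these genes. In a list of 10 mitochondrial reference genes, Cs was at percentile 0.011, Atp5b at 0.066 and Cox4i1 at 0.225. Of that list, Tfam at 66.1 and Ppargc1a at 95.5 were the ones above the median. Cs, Atp5b and Cox4i1 had bright signals, with means of 13.57, 14.25 and 14.02 log2 units, and that of Hspe1 was 12.11. What brightness contributes to low spread was not tested.

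Trap1 was lowest in WT 4 and WT 5. Its signal was 11.38, 11.38, 11.31, 11.21 and 11.18 in the WT group, while the KO group gave 11.33, 11.35, 11.41, 11.43 and 11.39. WT 3, WT 4 and WT 5 lay below every KO array, and WT 1 and WT 2 inside the KO range. The difference was 0.09 ± 0.055 (adjusted p of limma 0.914), and 0.024 without WT 4 and WT 5. The other Trap1 probe set differed by 0.05.

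Among the matrix proteases, Lonp1 was 10.50, 10.49, 10.39, 10.35 and 10.38 in WT and 10.45, 10.45, 10.42, 10.43 and 10.41 in KO arrays. The KO values lay inside the WT range, with an SD of 0.018 against 0.070, and that difference in spread was not tested. The difference of means was 0.0096 ± 0.048 (adjusted p of limma 0.986), and it was -0.0089 without WT 4. Clpp, the protease chamber, was 11.11, 11.03, 11.28, 11.10 and 11.19 in WT and 11.22, 11.19, 11.20, 11.04 and 11.18 in KO arrays, where KO 4 stood apart below the other KO arrays. It differed by 0.023 ± 0.060 (adjusted p of limma 0.964), and by -0.0048 without WT 2. Clpx, which unfolds the substrates of CLPP, was 10.44, 10.12, 10.37, 10.35 and 10.22 in WT and 10.35, 10.18, 10.21, 10.10 and 10.06 in KO arrays. It differed by -0.12 ± 0.076 (adjusted p of limma 0.914), with WT 2 and WT 5 inside the KO range. Its dimmer probe set went the other way, at 0.12, so the sign for Clpx depends on the probe set.

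Among the inner membrane proteases, Afg3l2 was 10.43, 10.38, 10.43, 10.52 and 10.46 in WT and 10.50, 10.31, 10.43, 10.23 and 10.28 in KO arrays. KO 2, KO 4 and KO 5 lay below every WT array, and KO 1 and KO 3 inside the WT range. The difference was -0.09 ± 0.061 (adjusted p of limma 0.914). KO 1 and KO 3 were also the arrays lowest in muscle transcripts. With the mean of the muscle markers as a covariate the difference was -0.14 ± 0.052, with an adjusted p of limma of 0.592, and its correlation with the muscle mean was -0.860 after removing group means and -0.515 before. Over all 10 arrays 0 of the 10 genes had a correlation with the muscle mean past the adjusted test. Without KO 1 and KO 3, the arrays farthest from its median, r was -0.818 for Hspe1, -0.628 for Hspd1, 0.819 for Trap1, 0.791 for Spg7 and 0.664 for Lonp1. It was weaker for Afg3l2 itself, at -0.422. For Clpp, Yme1l1, Hspa9 and Clpx it was -0.232, -0.064, 0.038 and 0.013. What muscle RNA contributes to these values was not tested further.

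Spg7 encodes the other subunit of the m-AAA protease. It was 9.62, 9.67, 9.50, 9.12 and 9.28 in WT and 9.59, 9.56, 9.68, 9.61 and 9.44 in KO arrays, again with WT 4 and WT 5 below every KO array. The difference was 0.14 ± 0.10 (adjusted p of limma 0.914), and it was -0.020 without WT 4 and WT 5. Yme1l1 was 8.05, 7.96, 8.19, 8.02 and 8.03 in WT and 8.07, 8.09, 8.12, 7.83 and 8.18 in KO arrays. It differed by 0.012 ± 0.071 (adjusted p of limma 0.988), and its sign turned without WT 2, KO 3 or KO 5.

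**Figure D2:**
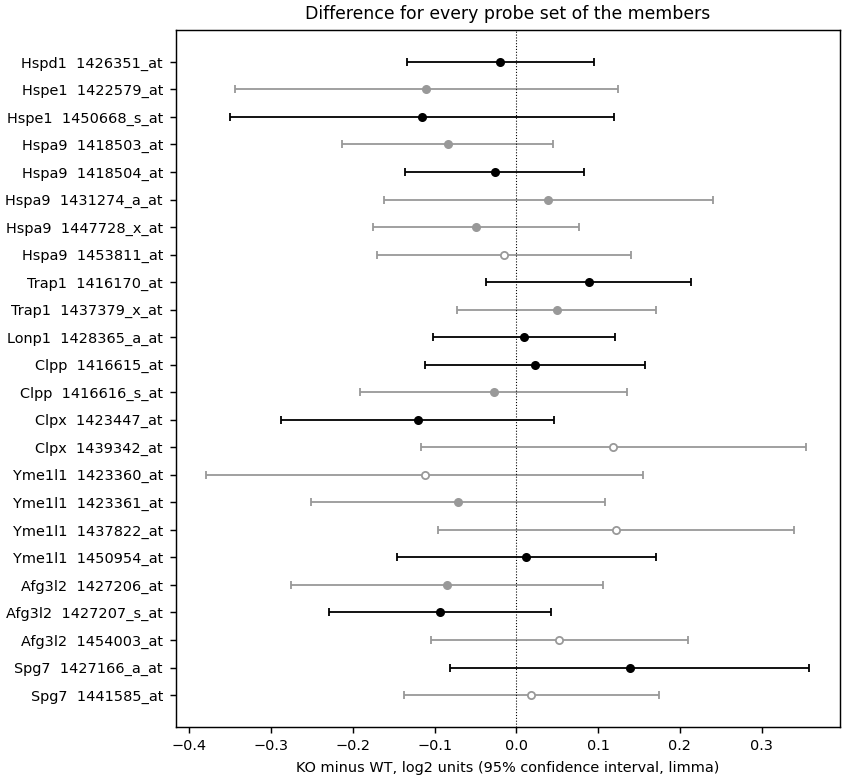
KO minus WT difference in log2 units with its 95% confidence interval for all 24 probe sets; black marks the probe set used for each gene, grey the others, and open circles those with a mean log2 signal under 6.5. Every interval contains 0, and probe sets of 1 gene fall on both sides of 0 for Hspa9, Clpp, Clpx, Yme1l1 and Afg3l2.

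Of these genes, 8 were read by several probe sets, which gave 14 probe sets beside the ones used. In 6 of the 14 the difference had the opposite sign to the one used. Brightness separated the 14: the 8 with a mean log2 signal between 7.79 and 11.52 had r from 0.516 to 0.935 with the one used over the 10 arrays, and the 6 with means between 5.24 and 6.32 had r from -0.330 to 0.340. The limit of 6.5 between them was set after the values were seen, and the r values are a description over arrays that both probe sets share.

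The genes did not vary as 1 group over the arrays. Of their 45 pairs, 23 had r above 0, the median r was 0.057, and the values ran from -0.651 (Hspe1 and Trap1) to 0.860 (Trap1 and Spg7). By permutation over 10 arrays, 8 pairs had an unadjusted p under 0.05 and 0 had an adjusted one over the 45 pairs. Those with the highest r were a chaperone with a protease subunit, Trap1 and Spg7, then Clpp and Yme1l1, Hspd1 and Hspe1, Lonp1 and Spg7, and Clpx and Afg3l2. Both parts of the CLPXP protease, Clpp and Clpx, had r = 0.305, and the m-AAA subunits Afg3l2 and Spg7 had r = -0.385.

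**Figure D3:**
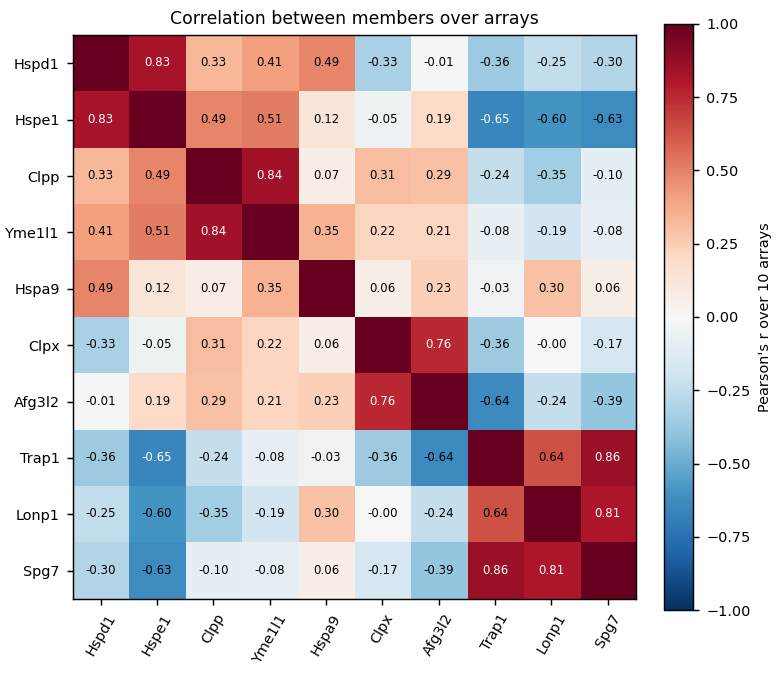
Pearson's r over the 10 arrays for every pair of the 10 genes, from blue (below 0) to red (above 0). Trap1, Lonp1 and Spg7 form a red block at the lower right with r from 0.64 to 0.86, and all 3 are blue against Hspe1, from -0.65 to -0.60. For Trap1 and Lonp1, r was 0.060 without WT 4 and WT 5, and -0.775 within the KO arrays. Without KO 4 and WT 5, r with Hspe1 was -0.106 for Trap1, -0.667 for Lonp1 and -0.487 for Spg7. None of these pairs passed the adjusted test.

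Hspd1 and Hspe1 were high in the same arrays, and the relation rested on WT 5 and KO 5. Pearson's r over the 10 arrays was 0.827 (permutation p = 0.0031, adjusted over 45 pairs 0.0517) and Spearman's rho was 0.600 (permutation p = 0.074, adjusted 0.370). Within groups r was 0.784 over the WT and 0.882 over the KO arrays. Without WT 5 and KO 5, the arrays farthest from the Hspd1 median, r was 0.367. The other Hspe1 probe set gave the same picture, with r = 0.837, and 0.417 without those arrays. Hspe1 was at rank 49 among 11669 genes above the median signal in likeness to Hspd1 after removing group means, and Hspd1 at rank 140 in likeness to Hspe1.

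The other close pairs rested on few arrays to different degrees. Trap1 and Spg7 had rho = 0.697 and permutation p = 0.0055 (adjusted 0.0615), and r was 0.412 without WT 4 and WT 5 and -0.350 with a dim Spg7 probe set in place of the one named _a_at. Lonp1 and Spg7 had r = 0.810 and rho = 0.758 (permutation p = 0.0034, adjusted 0.0517), and r was 0.732 without WT 1 and WT 4 but 0.554 without WT 4 and WT 5. Both relations were seen in WT arrays (r = 0.931 and 0.909) more than in KO arrays (0.288 and 0.206), and that difference was not tested. Clpp and Yme1l1 had r = 0.839 and rho = 0.770 (permutation p = 0.0023, adjusted 0.0517), with 0.674 after leaving out KO 4 and WT 2. Clpx and Afg3l2 had r = 0.757 and rho = 0.745 (permutation p = 0.013, adjusted 0.121), and 0.886 without WT 1 and WT 3. With the mean of all probe sets of each gene, r was 0.507 for Trap1 and Spg7, 0.556 for Lonp1 and Spg7, 0.473 for Clpp and Yme1l1 and 0.576 for Clpx and Afg3l2, and all 4 had an unadjusted permutation p above 0.05. That of Hspd1 and Hspe1 was then 0.848.

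A few chaperones from outside mitochondria passed a test of correlation with Hspd1 or Hspe1. The list held 12 measured genes of the cytosol and endoplasmic reticulum, each set against Hspd1, Hspe1 and Hspa9, in 36 pairs, and 4 passed for Hspd1 and 2 for Hspe1. The median r was 0.552 for Hspd1 and 0.549 for Hspe1, with values down to 0.081 (Hspa5) and 0.109 (Hspa1a). Of 11669 genes above the median signal, 6.25% had an r with Hspd1 at or above its median over the list, and 13.6% had one with Hspe1. Hspd1 had r = 0.831 with Hsp90aa1, the inducible cytosolic HSP90 (rho = 0.745, permutation p = 0.0028, adjusted 0.033), 0.830 with the small heat shock protein Hspb1 (rho = 0.612, adjusted 0.033), 0.792 with the HSP110 gene Hsph1 (rho = 0.745, adjusted 0.033) and 0.762 with the HSP40 gene Dnaja1 (rho = 0.697, adjusted 0.047). By rank, 0 of the 12 passed for Hspd1 after adjustment. Leaving out the 2 arrays farthest from the partner's median gave r = 0.790, 0.724, 0.765 and 0.614. Those arrays were KO 5 and WT 4 for Hsp90aa1, WT 4 and WT 5 for Hspb1, and WT 1 and WT 5 for Hsph1 and Dnaja1. WT 5 and KO 5, on which the relation of Hspd1 and Hspe1 rested, were not left out together. These values therefore cannot show whether the pairs rest on the same arrays. The size of these movements in signal was unlike: Hsph1 spanned 3.04 log2 units over the 10 arrays and Hsp90aa1 1.51, whereas Hspd1 spanned 0.16. Hspd1 was read by 1 probe set, with a mean of 13.05 log2 units, so its span could not be checked with another. Hspa8, with a mean of 12.95, spanned 0.986. Whether a bright signal limits the span was not tested. The most variable of the list, Hspa1a and Hspa1b, which spanned 4.15 and 4.71, had r = 0.402 and 0.523 with Hspd1 and did not pass.

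For Hspe1 the pairs that passed were with the endoplasmic reticulum chaperones that bind glycoproteins. It had r = 0.908 and rho = 0.915 with Canx, calnexin (permutation p = 1.9e-04, adjusted 0.0068, by rank 0.019), and r = 0.819 and rho = 0.867 with Calr, calreticulin (permutation p = 0.0030, adjusted 0.033, by rank 0.039). Without WT 4 and WT 5 these were 0.906 and 0.845. With the mean of 10 mitochondrial reference genes Hspe1 had r = 0.921 and rho = 0.891 (permutation p = 3.7e-04, adjusted 0.0074 over 20 tests of the genes against the reference and muscle means), and r was 0.764 without KO 4 and WT 5. That mean spanned 0.165 log2 units over the arrays, and its genes were unlike: r with Hspe1 was 0.899 for Ppargc1a, the coactivator of mitochondrial biogenesis, which spanned 1.07, and 0.803 for Cox4i1, a subunit of complex IV. It was -0.015 for Cs (citrate synthase) and -0.14 for Vdac1 (the outer membrane channel). Without Ppargc1a the mean of the other genes had r = 0.749 with Hspe1 (unadjusted permutation p = 0.0105). That mean spanned 0.066 log2 units over the arrays. For Hspd1 the r with the mean of all 10 was 0.708 (adjusted 0.126) and, for Lonp1, Trap1 and Spg7, it was -0.722, -0.697 and -0.660 (adjusted 0.126, 0.126 and 0.162). Without KO 4 and WT 5 it was 0.261 for Hspd1, -0.874 for Lonp1, -0.243 for Trap1 and -0.538 for Spg7. Hspa9 passed with 0 of the 12 outside chaperones, with r from -0.357 to 0.314, and had r = -0.0036 with the reference mean. These relations were examined after the values were seen, and the cause of the shared variation was not tested.

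**Figure D4:**
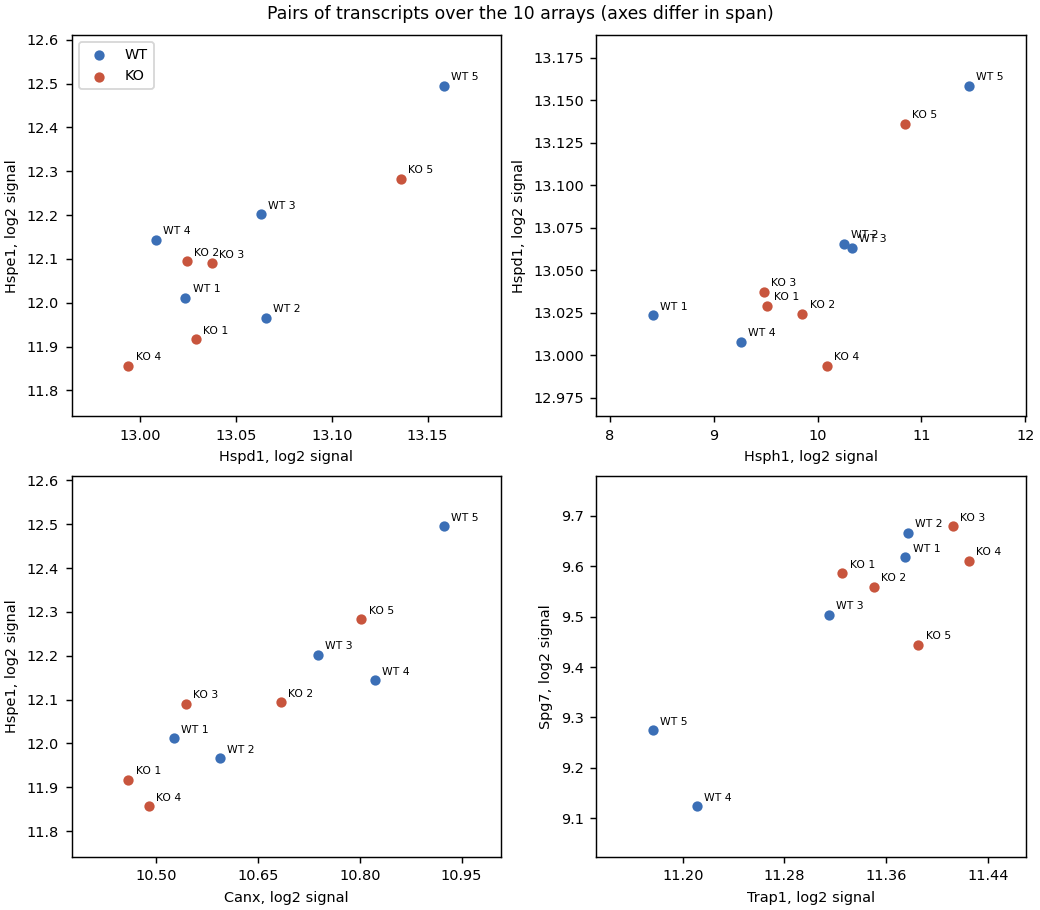
Log2 signals of 4 pairs of transcripts, 1 point per array, blue for WT and red for arrays labelled KO; axes differ in span. WT 5 and KO 5 lie at the upper right for Hspd1 with Hspe1 and with Hsph1, Hspe1 follows Canx over all arrays, and WT 4 and WT 5 set the lower left of Trap1 with Spg7.

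The transcripts most like each gene over the arrays included a few of the same machinery. After removing group means, the closest of 11669 genes to Spg7 was Oma1 (r = 0.979), an inner membrane protease of the stress response that cleaves OPA1, followed by the biliverdin reductase Blvra (0.972). Over the plain values, r with Oma1 was 0.792 and rho 0.745, and r was 0.622 without WT 1 and WT 4. For Hspa9 it was Grpel2 (r = 0.911), a nucleotide exchange factor of mortalin itself, then Copg2 (0.902), but over the plain values r with Grpel2 was 0.341, and it was -0.210 without KO 1 and KO 5. For Hspd1 it was Cct7 (0.949), a subunit of the cytosolic chaperonin TRiC, then Hspa4l (0.947), another HSP110. Afg3l2 was nearest to N6amt1 (0.972) and Cox15 (0.954), which makes heme A, and Clpp to Sdhaf3 (0.939), an assembly factor of complex II, and B3gat3 (0.937). The rest were Lman2l (0.975) and Apba3 (0.967) for Hspe1, Prnp (0.981) and Zfand3 (0.977) for Trap1, Itm2c (0.970) and Hvcn1 (0.969) for Lonp1, Arhgef40 (0.938) and Rbmx (0.930) for Clpx, and Dhrs4 (0.961) and Amn1 (0.940) for Yme1l1. With 10 arrays and 11669 candidates the highest of many r values is high by selection, so these are names and not tests.

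Partners of the same machinery gave no call between genotypes either. Of 21 listed co-chaperones and other mitochondrial proteases 19 were measured. Their median difference was 0.025 log2 units; 11 were higher, 8 lower, and 0 passed the test. Those with the smallest unadjusted p were Xpnpep3, a matrix aminopeptidase (0.29 ± 0.12), Grpel2 (0.11 ± 0.049), Immp1l, a subunit of the inner membrane peptidase (-0.13 ± 0.058), and Mipep, which trims imported precursors (0.15 ± 0.073). With the mean of all probe sets of a gene, Grpel2 differed by 0.042 and Mipep by 0.079, while Xpnpep3 and Immp1l stayed at 0.29 and -0.13. Grpel2 was 7.87, 7.91, 7.87, 7.82 and 7.82 in WT and 7.99, 7.91, 7.98, 7.91 and 8.06 in KO arrays, so that KO 2 and KO 4 lay at the level of the highest WT array. Adjusted p of limma was 0.914 for Xpnpep3 and Grpel2.

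Regulators of the mitochondrial stress response were also without a call, with 2 of 6 measured genes higher, 4 lower and 0 past the test; their median difference was -0.08. Eif2ak2, the kinase PKR, was the 1 gene here whose groups did not overlap: it was 6.56, 6.59, 6.57, 6.45 and 6.26 in WT and 6.61, 6.70, 6.60, 6.63 and 6.72 in KO arrays. Groups did not overlap in 0.627% of all genes. It differed by 0.17 ± 0.069 (adjusted p of limma 0.914), by 0.093 with the mean of its probe sets, by 0.11 without WT 5 and by 0.081 without WT 4 and WT 5. Atf5, the transcription factor that drives this response, differed by -0.23 ± 0.12, Foxo3 by -0.15 ± 0.10 and the C/EBP factor Cebpb by -0.19 ± 0.19. The Foxo3 and Cebpb values rested on WT 4 and WT 5: Foxo3 was -0.056 without WT 4 and -0.017 without both, and Cebpb was -0.069 without WT 4, -0.065 without WT 5 and 0.14 without both. Foxo3 was -0.074 with the mean of its probe sets, and Atf5 was -0.35 without WT 4 and WT 5. Hsf1 was not among the genes measured by a probe set of its own.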

How the data were processed

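Per the submitters' processing notes, the deposited values are log2 signals made with RMA, which corrects background, normalizes between arrays and summarises probe sets; the software and its settings are not stated there. No detection call comes with them, so low signals have no stated floor, and the number of arrays limits the precision. Of 45101 probe sets 64 were controls; 34945 had 1 gene in the platform annotation, 932 several and 9160 none, and the last 2 kinds were left out of the gene table. For each of 18193 genes the probe set with the highest mean was used. The KO minus WT contrast came from limma 3.58.1 in R 4.3.3 (lmFit, eBayes), two-sided, without covariates, with Benjamini-Hochberg adjustment over all genes or, in a separate fit, over all 45037 non-control probe sets. Correlations used two-sided permutation with 100000 resamples (scipy 1.17.1). The labels do not say that each sample came from a separate mouse, so p-values measure only the spread between these samples, which may be technical.

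The 10 genes and the lists were chosen with earlier results of these data known. Named genes are the 10, Sirt3, the 2 genes most like each of the 10, and up to 4 genes per described list, by smallest unadjusted p. The brown fat list did not follow that rule. Single brown fat markers, single reference genes and genes in correlations with other chaperones were named after their values were seen. White adipocyte, endothelial and macrophage lists, checked as markers of other cells, had 6, 10 and 8 measured genes, medians of -0.09, 0.09 and -0.12 log2 units, and 0 past the test. Their differences ran from -0.71 to 1.50, from -0.24 to 0.36 and from -0.73 to 0.19. By limma, 0, 1 and 2 genes had an unadjusted p under 0.05, where 4.68% of all genes had. Alternatives changed normalization, dim-gene filter, probe set choice, variance model, array weights, a muscle covariate, a replicate block and each array in turn; leaving out WT 4 and WT 5, or Ppargc1a from the reference mean, was added after the data were seen. Figures were drawn with matplotlib 3.10.9.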

Additional observations from a re-analysis of the deposited data

Results flagged for a closer look

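Clpp in KO 4 lay far from the other arrays of its group. Its log2 signal was 11.04, against 11.18 to 11.22 in the other 4 KO arrays, and the gap was 0.814 of the group's range, over the limit of 0.71 for 5 arrays. Of 38 groups of 5 arrays examined, in 19 genes, this was the 1 that passed, and chance alone would mark about 1 in 20. KO 4 was the lowest of the 10 arrays in Hspd1, Hspe1, Hspa9, Yme1l1 and Afg3l2, and the highest in Trap1.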

How the results depend on the processing

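Over 20 alternatives no gene passed the adjusted test, and the 24 probe sets gave 0 calls under each one run on them. At an unadjusted p under 0.05, 851 genes became 1471 with muscle transcripts as a covariate, and 611 to 1418 when 1 array was left out (1418 without WT 2). Of the 10 genes, 0 passed unadjusted; this became 1 with the muscle covariate (Afg3l2), and 0 to 1 without 1 array (Clpx without WT 2, Afg3l2 without KO 1). The cause was not tested. Of 199 values of the 10 genes under alternatives, 14 changed sign. With the mean of all probe sets Clpp was -0.0023 and Yme1l1 -0.012; Yme1l1 was -0.014 with array weights and -0.0017 with the muscle covariate. Without WT 4 and WT 5, Lonp1 was -0.030, Yme1l1 -0.0032, Spg7 -0.020 and Cebpb 0.14. Without 1 array, Hspd1 ran from -0.043 to 0.0041, Lonp1 from -0.0089 to 0.029, Clpp from -0.0048 to 0.057 and Yme1l1 from -0.019 to 0.068. The median of the 10 then ran from -0.031 to 0.0020. Lonp1 could not be followed without _a_at probe sets. The correlation of Hspd1 and Hspe1 stayed between 0.662 and 0.891 without 1 array; that of Trap1 and Spg7 turned to -0.350 without _a_at probe sets. With the replicate number as a block, 736 genes had an unadjusted p under 0.05, 0 of the 10 among them, and no call changed. Same-numbered arrays had correlations of their deviations from -0.395 to 0.236. The labels do not say what the number marks, and these correlations cannot decide whether it pairs the samples. With 5 arrays a group, intervals of the 10 genes had half-widths from 0.10 to 0.24 log2 units.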

Other observations

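Besides Hspd1 and Hspe1, the run of heat shock units was found in the promoter windows of Arpc2, Chordc1 and Fam149a. Chordc1, a co-chaperone of HSP90, was 8.29, 9.01, 9.12, 8.93 and 9.83 log2 units in the WT group by array number, and the KO group gave 8.60, 8.79, 8.75, 8.95 and 9.46. As in Hspd1 and Hspe1, array 5 was the highest of each group. It differed by -0.13 ± 0.25, KO minus WT (adjusted p of limma 0.957). Arpc2, an actin nucleation subunit, was lowest in WT 5 at 10.49 and highest in KO 5 at 10.84, and Fam149a was also lowest in WT 5, at 7.47. These genes were named after the windows and values were seen.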
